A study of Mus musculus with 2 samples.

Results

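Transcripts of 4 steroid receptors, 3 genes known to be induced by glucocorticoids and 1 enzyme that makes active glucocorticoid were followed in nuclei of the ventrolateral periaqueductal gray (vlPAG), a midbrain region. The 8 genes were chosen by name among the 55450 genes counted: the receptors Nr3c1, Nr3c2, Esr1 and Pgr, the induced genes Fkbp5, Sgk1 and Tsc22d3, and the enzyme gene Hsd11b1. Each library was made from tissue pooled from 18 wild-type (WT) C57/BL6J mice, which were 8 weeks old when the diets began and were fed for 7 weeks on either a normal food diet (NFD) or a high-fat diet (HFD). There was 1 library per diet, so diet cannot be told apart from pool, dissection or library, and no difference between the libraries has a replicate check or a p-value.

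Nuclei with more than 500 unique molecular identifiers (UMIs, each standing for 1 captured RNA molecule) and under 20% mitochondrial counts were kept. This left 7500 of 7625 NFD nuclei and 6322 of 6813 HFD nuclei, with medians of 4504.5 and 7347.5 UMIs and totals of 41042988 and 54587419 UMIs. The libraries shared 13 barcodes, 12 of them among the nuclei kept. Genes used as heat shock markers summed to 58.0 UMIs per 1000000 (CPM) in NFD nuclei and 132 CPM in HFD nuclei, immediate early genes to 63.6 and 78.8 CPM, and blood genes to 15.3 and 1.76 CPM. A cluster led by Gabra6 and Etv1, which are markers of cerebellar granule neurons, held 10 NFD and 814 HFD nuclei, so it was not compared between the libraries.

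Clusters were made without the 8 genes and their pathway genes and were named by markers. GABAergic-like clusters held 2572 NFD and 2097 HFD nuclei, and neuronal clusters with Slc17a6, the vesicular glutamate transporter of midbrain excitatory neurons, held 1785 and 1476. The transmitter markers were mixed in the GABAergic-like cluster led by Rnf220 and Palld (1023 nuclei), with GABAergic markers at 245 CPM and glutamatergic markers at 115 CPM. Serotonergic-like nuclei, led by Tph2 and Slc6a4, numbered 261 and 165. The other named groups were astrocyte-like (403 and 299 nuclei), oligodendrocyte-like (122 and 72), oligodendrocyte precursor-like (57 and 47), microglia-like (216 and 177), endothelial-like (255 and 96) and ependymal-like (141 and 183), and 1678 and 896 nuclei stayed unnamed. All values below are UMIs summed over the nuclei of a group, as CPM of that group, and intervals are 95% intervals that cover counting error only.

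Corticosterone crosses the cell membrane and binds the glucocorticoid receptor, encoded by Nr3c1, and with higher affinity the mineralocorticoid receptor, encoded by Nr3c2. Both are held ready for hormone by heat shock protein chaperones, move to the nucleus on binding and act on genes through the same DNA element. The estrogen receptor alpha (Esr1) and the progesterone receptor (Pgr) also bind hormone and act on genes, the former through a different DNA element. Pgr is a classical estrogen-induced gene in several tissues. Fkbp5 encodes a co-chaperone that lowers the hormone affinity of the glucocorticoid receptor, Sgk1 a kinase that controls ion channels and transporters, and Tsc22d3 the anti-inflammatory protein GILZ. Hsd11b1 encodes the enzyme that regenerates active glucocorticoid inside cells.

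The 4 receptors had different distributions over the 10 named groups, and 0 of the 8 genes differed between the libraries over all nuclei by the rule used here, that the whole interval of the HFD to NFD ratio lie beyond 0.32 on the log2 scale in either direction. By that rule 4.87% of the 16345 genes with at least 100 UMIs were called over all nuclei. Nr3c1 had 3011 UMIs in NFD and 5035 in HFD nuclei (73.4 and 92.2 CPM, log2 ratio 0.33, interval 0.27 to 0.40), Nr3c2 had 14459 and 20733 (352 and 380 CPM), Esr1 had 2065 and 3015 (50.3 and 55.2 CPM) and Pgr had 2539 and 3203 (61.9 and 58.7 CPM). Values over all nuclei include the granule neuron-like cluster. Without it Nr3c1 stood at 73.4 and 89.5 CPM (log2 ratio 0.29, interval 0.22 to 0.35). Of the other genes, Fkbp5 stood at 30.7 and 34.1 CPM, Sgk1 at 95.9 and 111 CPM, Tsc22d3 at 13.1 and 14.4 CPM and Hsd11b1 at 1.49 and 1.17 CPM, the last from 61 and 64 UMIs. Levels of different genes are not ranked against each other, since 3' counts are not given per length here.

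Within the named groups, 59 pairs of a gene and a group had at least 20 UMIs over both libraries, with 1 or more in each, and at least 20 nuclei in each, and 6 of them were called, 4 higher and 2 lower in the HFD library. The called pairs were Nr3c1 in GABAergic-like and in endothelial-like nuclei, Sgk1 in astrocyte-like nuclei and Tsc22d3 in endothelial-like nuclei, all higher in HFD, and Esr1 in ependymal-like nuclei and Hsd11b1 in Slc17a6 neurons, both lower. The log2 ratio was above 0 in 38 of the 59 pairs. Shares and medians over all genes, here and below, cover only genes with at least 100 UMIs in that group or subcluster. By the same rule 2.36% of these genes were called in GABAergic-like nuclei, 2.47% in Slc17a6 neurons, 3.12% in serotonergic-like and 9.73% in astrocyte-like nuclei. The share was 15.4% in oligodendrocyte-like, 3.7% in oligodendrocyte precursor-like, 9.59% in microglia-like, 17.5% in endothelial-like and 9.58% in ependymal-like nuclei. Nuclei of at least 2000 UMIs were also thinned to 2000 UMIs each, and shallower nuclei were left out. This leaves fewer nuclei and fewer UMIs, and none of the 6 pairs was still called.

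**Figure D1:**
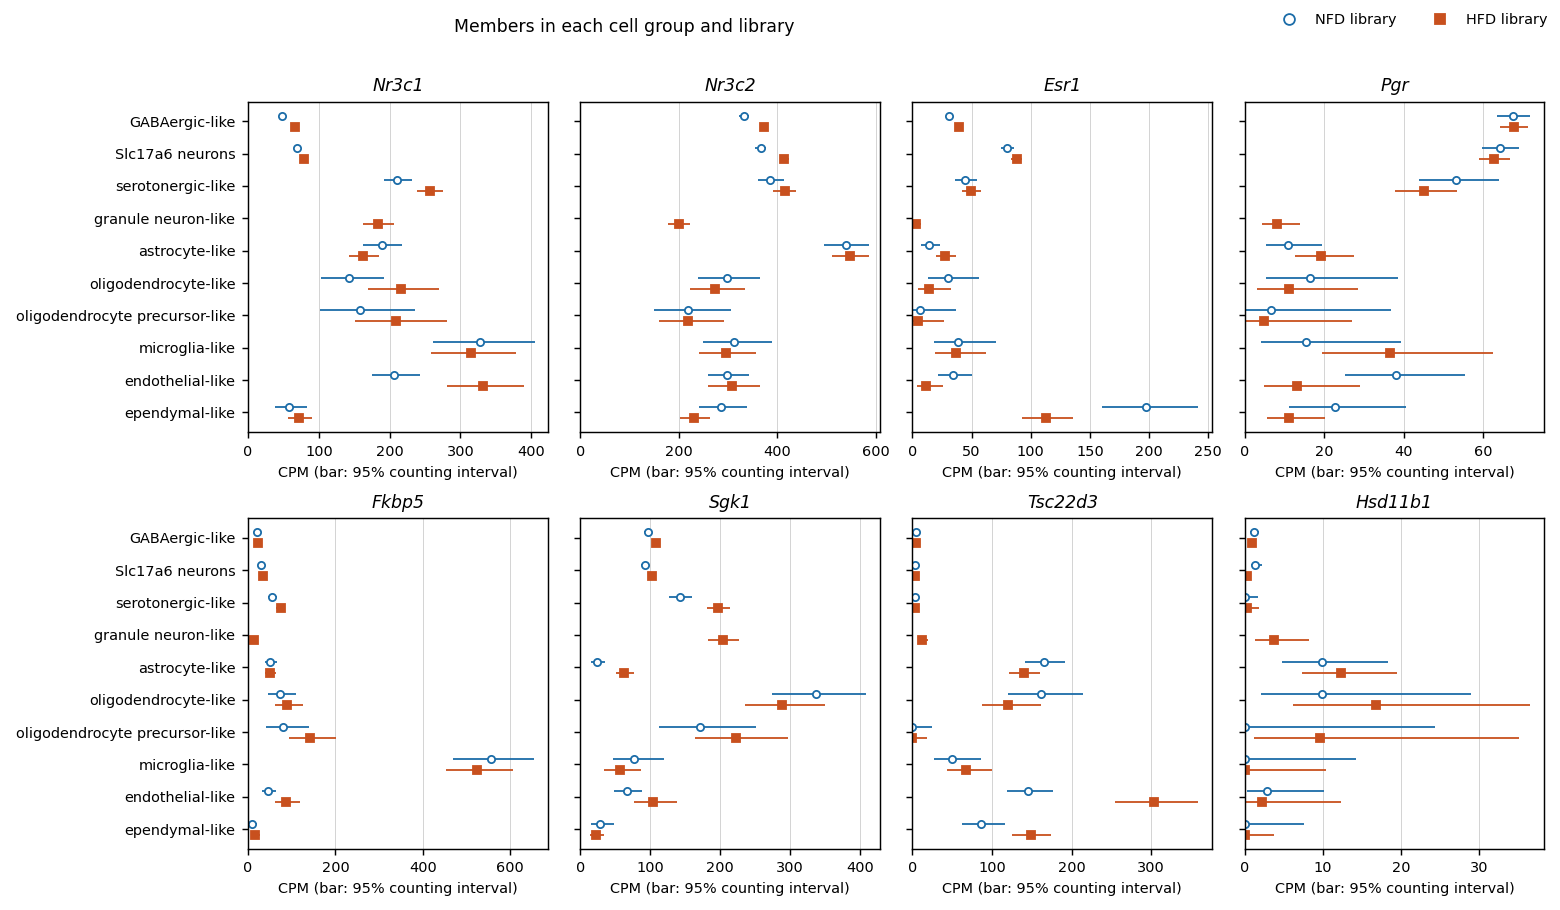
Level of each of the 8 genes in each named cell group (CPM on the horizontal axis), NFD as open circles and HFD as filled squares, with bars for the 95% counting interval. Fkbp5 stood at 555 and 525 CPM in microglia-like nuclei, above every other group, and Nr3c1 was lowest in GABAergic-like nuclei at 48.4 and 66.9 CPM.

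Nr3c1 was found in every group and was lower in the GABAergic-like, Slc17a6 and ependymal-like groups than in the rest. Microglia-like nuclei had 328 and 314 CPM in the NFD and HFD libraries, endothelial-like nuclei 206 and 332 CPM, and serotonergic-like nuclei 211 and 256 CPM. The range over the libraries in endothelial-like nuclei overlapped that of each of the other two, which did not overlap each other. By level over both libraries together, oligodendrocyte precursor-like (159 and 209 CPM), oligodendrocyte-like (142 and 215 CPM) and astrocyte-like nuclei (189 and 163 CPM) came next. With the granule neuron-like HFD nuclei at 183 CPM they formed a run of overlapping neighbours. The oligodendrocyte-like range also overlapped those of endothelial-like and serotonergic-like nuclei, and the oligodendrocyte precursor-like range that of endothelial-like nuclei. In oligodendrocyte-like nuclei, neuron markers summed to 433 and 2226 CPM, granule neuron markers to 165 and 1205 CPM and serotonergic markers to 139 and 587 CPM. Markers of mature oligodendrocytes summed to 7654 and 4827 CPM there. The part of other cells' RNA in the oligodendrocyte-like levels was not tested. Astrocyte-like nuclei were 2.31 times above the next group without overlap, and below that gap came Slc17a6 neurons (69.0 and 79.6 CPM), ependymal-like nuclei (57.7 and 71.7 CPM) and GABAergic-like nuclei (48.4 and 66.9 CPM), each overlapping the next. The serotonergic-like neurons thus had no overlap with either the GABAergic-like or the Slc17a6 neurons.

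Between the libraries, Nr3c1 was higher in HFD in 7 of 9 groups compared. In GABAergic-like nuclei it had 730 UMIs in NFD and 1382 in HFD, a log2 ratio of 0.47 (interval 0.34 to 0.60), in a group where 2.36% of all genes were called and 0.545% were called as higher. It lay above 0 in each of the 5 GABAergic-like clusters, from 0.28 to 0.70, with 0 of the 5 called singly. After thinning each nucleus to 2000 UMIs, 8.18% of 2322 NFD nuclei and 11.7% of 2080 HFD nuclei held an Nr3c1 UMI. No group here lacked Nr3c1, so these shares have no background group beside them.

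GABAergic-like nuclei were deeper in the HFD library, and the ratio was also computed within ranges of depth. For neurons these ranges leave out nuclei below 2000 UMIs and those of 16000 UMIs or more. Among nuclei of 2000 to 4000 UMIs (649 NFD and 99 HFD nuclei) Nr3c1 stood at 48.1 and 59.3 CPM, with a log2 ratio of 0.30 (-0.49 to 1.02). Among nuclei of 4000 to 8000 UMIs it stood at 46.5 and 64.2 CPM (log2 ratio 0.47, 0.23 to 0.70), and among nuclei of 8000 to 16000 UMIs at 51.5 and 71.1 CPM (0.46, 0.26 to 0.67). With 30 principal components in the clustering the ratio over all depths was 0.41 (0.27 to 0.56), which was not called. The ratio was thus above 0 in each range of depth and was called in none of the 3. Heat shock genes summed to 43.8 and 111 CPM and immediate early genes to 66.7 and 82.6 CPM in the same nuclei, and their part in the difference was not tested. In Slc17a6 neurons Nr3c1 had a log2 ratio of 0.21 (0.08 to 0.34), but the direction turned with depth: it was -0.39 (-1.56 to 0.58) at 2000 to 4000 UMIs, -0.05 (-0.32 to 0.21) at 4000 to 8000 and 0.32 (0.11 to 0.52) at 8000 to 16000. In serotonergic-like nuclei the log2 ratio was 0.28 (0.11 to 0.46), and 25.7% of NFD and 36.6% of HFD nuclei held a UMI after thinning. Whether the ratio differs between the neuronal groups was not tested, since there is 1 library per diet.

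In endothelial-like nuclei Nr3c1 had 146 UMIs in NFD and 150 in HFD, from 255 and 96 nuclei, with a log2 ratio of 0.69 (0.35 to 1.03). This group had the highest background, 17.5% of genes called, and its median gene lay at a log2 ratio of 0.13. Median depth was 1523 and 2596.5 UMIs, heat shock genes summed to 704 and 1893 CPM and markers of pericytes or fibroblasts to 3781 and 4679 CPM, and their part was not tested. Among nuclei of 2000 to 8000 UMIs Nr3c1 stood at 195 and 282 CPM, from 67 and 47 UMIs (0.53, -0.04 to 1.09). Among nuclei of 500 to 2000 UMIs it stood at 275 and 465 CPM, from 40 and 22 UMIs (0.76, -0.06 to 1.54). Neither was called, and nuclei of 8000 UMIs or more were in neither range.

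Nr3c2 was the most evenly spread of the receptors and was not called in any of the 9 groups compared over all depths. Astrocyte-like nuclei were highest at 539 and 547 CPM, with no overlap with the next group. Serotonergic-like nuclei (386 and 415 CPM), Slc17a6 neurons (366 and 414 CPM) and GABAergic-like nuclei (332 and 372 CPM) followed as overlapping neighbours. Endothelial-like (298 and 308 CPM), microglia-like (312 and 295 CPM), oligodendrocyte-like (297 and 274 CPM) and ependymal-like nuclei (286 and 232 CPM) came below them, each overlapping only its neighbours in this order, oligodendrocyte precursor-like nuclei had 218 CPM in both libraries and granule neuron-like nuclei 200 CPM in HFD. The log2 ratios of Nr3c2 ran from -0.31 in ependymal-like nuclei to 0.18 in Slc17a6 neurons. GABAergic-like and Slc17a6 neurons were thus among the higher groups for Nr3c2 and among the lower ones for Nr3c1, and granule neuron-like nuclei were lowest for Nr3c2. Within ranges of depth Nr3c2 was lower in ependymal-like HFD nuclei, at 299.5 and 167 CPM among nuclei of 2000 to 8000 UMIs (-0.84, -1.36 to -0.32, called). Among nuclei of 500 to 2000 UMIs it stood at 327 and 215 CPM (-0.61, -1.94 to 0.55, not called). Nuclei of 8000 UMIs or more were in neither range.

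Esr1 was concentrated in ependymal-like nuclei and in Slc17a6 neurons. Ependymal-like nuclei had 198 and 113 CPM (NFD and HFD, in this order here and below), Slc17a6 neurons 80.1 and 88.0 CPM, and serotonergic-like nuclei 44.3 and 49.2 CPM, each without overlap with the next. GABAergic-like nuclei had 31.3 and 39.2 CPM from 472 and 809 UMIs. Thinned to 2000 UMIs, 11.6% and 13.2% of Slc17a6 neurons and 5.0% and 6.49% of GABAergic-like nuclei held an Esr1 UMI, against 1.13% and 4.22% of astrocyte-like nuclei. Granule neuron-like nuclei of the HFD library had 3.14 CPM and oligodendrocyte precursor-like nuclei 1 UMI in each library. Among the Slc17a6 clusters the one led by Tac1 and Tcf7l2 had 127 and 148 CPM.

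The lower Esr1 level in ependymal-like HFD nuclei rested on 96 and 110 UMIs (log2 ratio -0.81, -1.22 to -0.40), in a group where 9.58% of genes were called. It was called in neither range of depth computed, and these ranges leave out nuclei of 8000 UMIs or more. Among nuclei of 500 to 2000 UMIs Esr1 stood at 196 and 349 CPM, from 18 and 13 UMIs (0.83, -0.32 to 1.94). Among nuclei of 2000 to 8000 UMIs it stood at 142 and 109 CPM, from 26 and 53 UMIs (-0.38, -1.08 to 0.36). Neuron markers summed to 704 and 411 CPM in these nuclei and heat shock genes to 422 and 987 CPM, and their part was not tested. The call was absent when nuclei with 5% or more mitochondrial counts were left out (log2 ratio -0.05, 96 and 78 nuclei). It was also absent with 3000 variable genes (-0.14) and at the finer cluster resolution of 1.0 (-0.37), but there the name also covered a shallow cluster led by Cfap299 and mitochondrial genes, mostly of NFD nuclei (320 and 27, and 238 and 24), so the groups compared were not the same.

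In GABAergic-like nuclei Esr1 had a log2 ratio of 0.33 (0.16 to 0.49), which was not called. Among GABAergic-like nuclei of 2000 to 4000 UMIs it stood at 37.9 and 46.8 CPM (0.31, -0.60 to 1.11), among those of 4000 to 8000 UMIs at 30.8 and 46.6 CPM (0.60, 0.32 to 0.88), and among those of 8000 to 16000 UMIs at 26.7 and 34.5 CPM (0.37, 0.08 to 0.66). Its log2 ratio was thus above 0 in each of the 3 ranges of depth, and called in none. Endothelial-like nuclei had 24 and 5 Esr1 UMIs (-1.61, -3.36 to -0.20) and microglia-like nuclei 10 and 13 (-0.08, -1.38 to 1.27), and neither was called.

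Pgr had its higher levels in the GABAergic-like, Slc17a6 and serotonergic-like neurons. GABAergic-like nuclei had 67.6 and 67.7 CPM (1020 and 1398 UMIs), Slc17a6 neurons 64.2 and 62.9 CPM, and serotonergic-like nuclei 53.2 and 45.2 CPM. Granule neuron-like nuclei were low, with 8.17 CPM in HFD from 13 UMIs. Thinned to 2000 UMIs, 10.3% and 11.8% of GABAergic-like nuclei held a Pgr UMI, against 1.69% and 0.844% of astrocyte-like nuclei. Astrocyte-like nuclei fell into a cluster with few neuron markers (118 and 153 CPM, 344 and 220 nuclei), which had 0 and 2 Pgr UMIs, and a smaller cluster of 59 and 79 nuclei with neuron markers at 1962 and 2818 CPM. The larger cluster thus held next to no Pgr.

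The log2 ratio of Pgr in GABAergic-like nuclei was 0.00 (-0.12 to 0.12) over all depths. Within the ranges of depth computed it was below 0. It was -1.26 (-2.50 to -0.23, 123 and 8 UMIs) for nuclei of 2000 to 4000 UMIs, -0.11 (-0.34 to 0.11) for 4000 to 8000 and -0.19 (-0.36 to -0.01) for 8000 to 16000. None of the 3 was called, and all 3 intervals reached past -0.32. In the Tac1 and Tcf7l2 cluster of Slc17a6 neurons Pgr had 74.0 and 55.7 CPM (-0.41, -0.68 to -0.14), which was not called. Endothelial-like nuclei had 27 and 6 Pgr UMIs (-1.52, -3.09 to -0.22), which was not called, and microglia-like nuclei 4 and 13. Pgr was not called in any of the 6 groups compared.

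**Figure D2:**
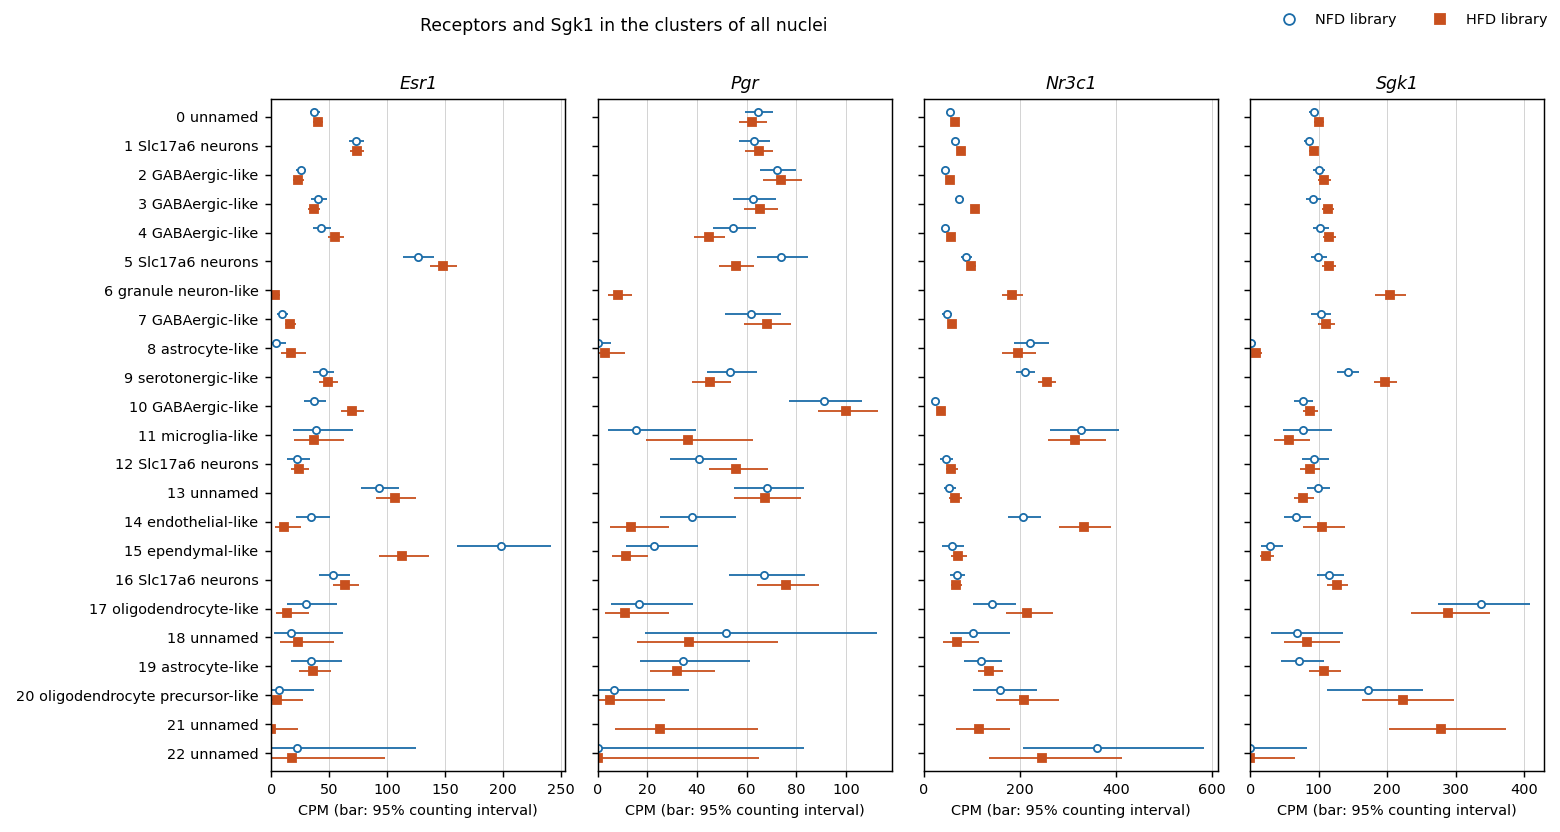
Levels of Esr1, Pgr, Nr3c1 and Sgk1 in the 23 clusters (CPM), with bars for the 95% counting interval. NFD is shown as open circles and HFD as filled squares, with clusters in the order of their numbers. Esr1 stood at 127 and 148 CPM in the Slc17a6 cluster led by Tac1, and Pgr at 0 and 2 UMIs in the larger astrocyte-like cluster.

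Both Esr1 and Pgr were present in GABAergic-like and Slc17a6 neurons and how their UMIs fell together in nuclei depended on depth. Over the 12 neuronal clusters, thinned to 2000 UMIs, 52 of 457 NFD nuclei with an Esr1 UMI also held a Pgr UMI (11.4%, Clopper-Pearson interval 8.62 to 14.7%), against 10.6% (9.83 to 11.5%) of nuclei without an Esr1 UMI. In the HFD library the shares were 37 of 389 (9.51%, 6.79 to 12.9%) and 11.4% (10.4 to 12.4%), so the intervals overlapped in both libraries. Without thinning the shares were 34.1% (31.2 to 37.0%) with and 26.1% (24.9 to 27.3%) without an Esr1 UMI in NFD, and 46.1% (43.1 to 49.1%) and 39.6% (38.0 to 41.3%) in HFD, with intervals apart, among nuclei of unequal depth. At 2000 UMIs Nr3c1 and Nr3c2 gave an Nr3c2 UMI in 45.7% of nuclei with and 46.8% of nuclei without an Nr3c1 UMI in NFD, and 49.6% and 49.1% in HFD. For Fkbp5 the shares were 5.95% (4.22 to 8.11%) with and 4.01% (3.49 to 4.57%) without an Nr3c1 UMI in NFD, and 7.52% (5.52 to 9.97%) and 4.93% (4.27 to 5.66%) in HFD. For Sgk1 they were 17.04% with and 16.56% without in NFD, and 19.66% and 18.84% in HFD. For Tsc22d3 they were 1.13% and 0.855% in NFD, and 0.684% and 0.704% in HFD. For Fkbp5, Sgk1 and Tsc22d3 alike the intervals overlapped in both libraries. The nuclei pooled here include serotonergic-like ones, which had more Nr3c1 and Fkbp5 than GABAergic-like nuclei. Their part in the Fkbp5 shares was not tested. Nuclei of 1 library share their source, and these shares depend on the depth to which nuclei were thinned.

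Fkbp5 had its highest level in microglia-like nuclei. Microglia-like nuclei had 555 and 525 CPM, from 144 and 187 UMIs, and their mean over both libraries was 4.69 times that of the next group. Oligodendrocyte precursor-like (79.3 and 141 CPM), oligodendrocyte-like (72.7 and 89.5 CPM), serotonergic-like (54.6 and 74.2 CPM), endothelial-like (45.3 and 86.4 CPM) and astrocyte-like nuclei (50.7 and 50.6 CPM) came next. Slc17a6 neurons had 29.8 and 33.1 CPM and GABAergic-like nuclei 20.7 and 22.9 CPM, so Fkbp5 was low in the neurons that made up most of the tissue. In 7 of 9 groups it was higher in HFD, and it was not called in any of them over all depths. The log2 ratio was 0.93 (0.22 to 1.66) in endothelial-like nuclei, from 32 and 39 UMIs, and 0.44 (0.11 to 0.78) in serotonergic-like nuclei. Among endothelial-like nuclei of 500 to 2000 UMIs Fkbp5 stood at 68.8 and 275 CPM, from 10 and 13 UMIs (2.00, 0.69 to 3.35, called). Among those of 2000 to 8000 UMIs it stood at 37.8 and 84.1 CPM (1.15, -0.05 to 2.36, not called).

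Sgk1 and Tsc22d3 are induced through glucocorticoid response elements, and the RefSeq promoters of build GRCm38.p6, the 250 bases before and 50 bases after each start site, were searched for them on both strands. The full palindrome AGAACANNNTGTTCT was found in 3 of 32851 promoters (0.00913%), those of Acnat2, Gm35041 and Sgk1. It lay in 1 of the 6 Sgk1 promoters. The single repeat TGTTCT, which is part of that palindrome, was in 19% of all promoters, in 3 of 6 of Sgk1 and in 1 of 3 of Tsc22d3. Neither was in the 1 promoter each of Fkbp5, Pgr, Nr3c2 and Hsd11b1 or the 2 of Esr1, and the estrogen response element GGTCANNNTGACC, in 0.0700% of all promoters, was in none of these members' promoters. The Sgk1 and Tsc22d3 promoters are shown because their genes are the canonical hormone targets compared here, with the matching letters in capitals (palindrome in Sgk1, single repeat in Tsc22d3).
Sgk1: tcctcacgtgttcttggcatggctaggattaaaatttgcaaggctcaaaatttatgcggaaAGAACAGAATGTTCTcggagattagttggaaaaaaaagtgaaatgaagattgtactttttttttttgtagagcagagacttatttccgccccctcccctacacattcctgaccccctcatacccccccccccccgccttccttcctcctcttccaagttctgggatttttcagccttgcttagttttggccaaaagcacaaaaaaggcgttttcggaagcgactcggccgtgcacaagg
Tsc22d3: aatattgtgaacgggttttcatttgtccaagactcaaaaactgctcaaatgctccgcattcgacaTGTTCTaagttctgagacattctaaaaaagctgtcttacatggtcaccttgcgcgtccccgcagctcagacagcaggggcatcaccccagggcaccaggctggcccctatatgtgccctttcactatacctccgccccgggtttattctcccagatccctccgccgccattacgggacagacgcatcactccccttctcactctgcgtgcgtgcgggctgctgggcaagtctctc
The Sgk1 window is chr10:21993640-21993939 on the plus strand, and its palindrome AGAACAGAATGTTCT begins 189 bases before the start site. The Tsc22d3 window is chrX:140600473-140600772 on the minus strand, and its repeat begins 185 bases before the start site. A match is letters in a window and not a measured binding site, and 3' counts do not say which start site was used.

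Sgk1 was highest in oligodendrocyte-like nuclei, at 337 and 288 CPM, with no overlap with the next group. Granule neuron-like nuclei of the HFD library had 204 CPM, oligodendrocyte precursor-like nuclei 172 and 223 CPM, and serotonergic-like nuclei 142 and 197 CPM. GABAergic-like nuclei (96.4 and 109 CPM) and Slc17a6 neurons (92.6 and 102 CPM) were close to each other, and ependymal-like nuclei had 28.8 and 22.5 CPM. In serotonergic-like nuclei Sgk1 had 302 and 584 UMIs, a log2 ratio of 0.47 (0.27 to 0.68) that was not called, where 3.12% of genes were called. Thinned to 2000 UMIs, 22.2% of NFD and 31.7% of HFD serotonergic-like nuclei held an Sgk1 UMI.

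In astrocyte-like nuclei Sgk1 had 24 UMIs in NFD and 92 in HFD, or 23.9 and 62.9 CPM (log2 ratio 1.40, 0.74 to 2.11), where 9.73% of genes were called. Of these UMIs, 23 and 87 came from the smaller cluster with neuron markers, which had 71.7 and 108 CPM. That cluster also held granule neuron markers at 134 and 1530 CPM. The larger astrocyte-like cluster had 1 and 5 UMIs, so without the smaller one too few UMIs remained for a ratio. Sgk1 is thus near 0 in the cluster of fewer neuron markers in both libraries.

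Tsc22d3 had its high levels outside the neurons. Endothelial-like nuclei had 146 and 304 CPM, astrocyte-like nuclei 165 and 140 CPM, oligodendrocyte-like nuclei 162 and 120 CPM and ependymal-like nuclei 86.5 and 149 CPM. Without the smaller cluster with neuron markers, astrocyte-like nuclei had 210 and 228 CPM (log2 ratio 0.12, -0.22 to 0.46, not called). Over both libraries that was 219 CPM, against 207 CPM in endothelial-like nuclei. GABAergic-like nuclei (3.98 and 4.26 CPM), Slc17a6 neurons (3.39 and 3.62 CPM) and serotonergic-like nuclei (2.83 and 3.04 CPM) were far lower in both libraries. Oligodendrocyte precursor-like nuclei had 0 UMIs in both, which allows up to 19.8 CPM in NFD and 14.6 CPM in HFD by a limit of 3 UMIs.

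The difference between the libraries in endothelial-like nuclei rested on 103 and 137 Tsc22d3 UMIs (log2 ratio 1.06, 0.68 to 1.44), in the group with 17.5% of genes called and a median gene at 0.13. Among nuclei of 2000 to 8000 UMIs the levels were 178 and 325 CPM, from 61 and 54 UMIs (0.87, 0.31 to 1.42), which was not called. Among nuclei of 500 to 2000 UMIs there were 13 and 6 UMIs, too few for a ratio. The other Tsc22d3 UMIs came from nuclei of 8000 UMIs or more, which were in neither range. With 30 principal components the Tsc22d3 ratio was 0.58 (0.20 to 0.98) and that of Nr3c1 0.59 (0.22 to 0.97), and neither was called. The endothelial-like name then covered 143 and 102 nuclei, against 255 and 96 in the main clustering. A cluster of 419 and 47 nuclei led by Slco1a4 and Flt1 stayed unnamed. Gad1, Gad2 and Slc32a1 summed to 24.0 CPM in these endothelial-like nuclei and 90.7 CPM in those of the main clustering. The groups compared were thus not the same. In ependymal-like nuclei Tsc22d3 had 42 and 145 UMIs and a log2 ratio of 0.78 (0.28 to 1.31), which was not called, and after thinning 10.9% and 23.9% of nuclei held a UMI.

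Hsd11b1 was sparse. Oligodendrocyte-like nuclei had 3 and 6 UMIs (9.91 and 16.8 CPM) and astrocyte-like nuclei 10 and 18 (9.94 and 12.3 CPM). GABAergic-like nuclei had 18 and 20 UMIs, or 1.19 and 0.969 CPM. Microglia-like nuclei had 0 UMIs in both libraries, which allows up to 11.6 and 8.42 CPM by the same limit. In Slc17a6 neurons Hsd11b1 had 16 and 5 UMIs (log2 ratio -2.16, -3.96 to -0.64), which was called. In that group 2.47% of genes with at least 100 UMIs were called, a count that Hsd11b1 did not reach. After thinning, 0.227% of 1766 NFD nuclei and 0.136% of 1472 HFD nuclei held a UMI, so the pair rests on very few molecules.

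**Figure D3:**
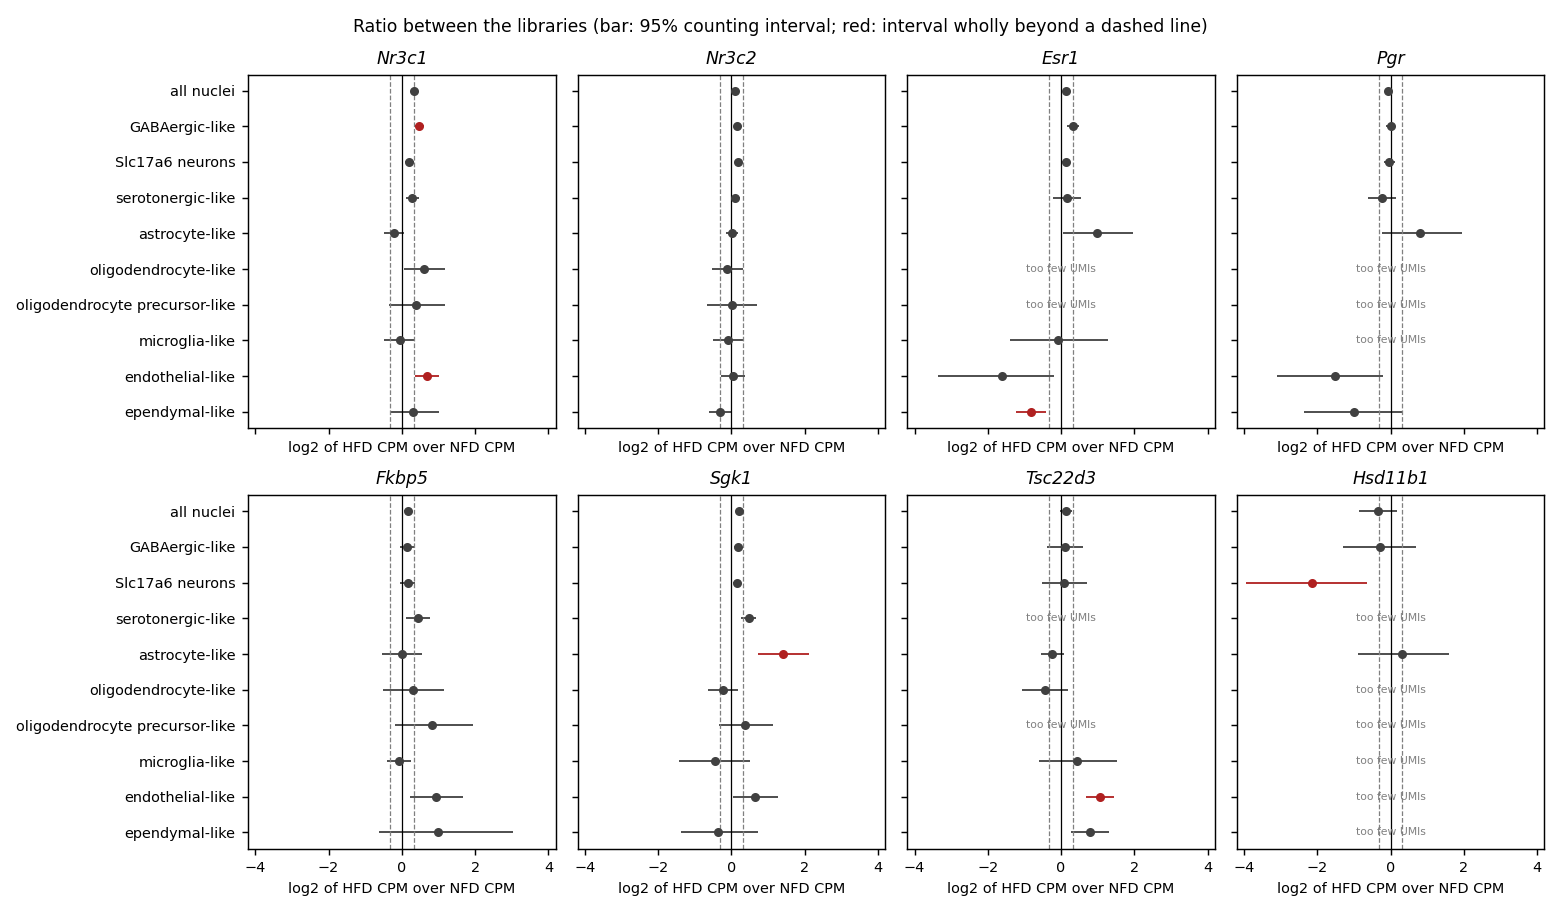
HFD to NFD ratio (log2) of each gene in each named cell group, with bars for the 95% counting interval and red where the whole interval lies beyond 0.32 in either direction (dashed). The 6 called pairs are in red, among them Nr3c1 in GABAergic-like nuclei at 0.47 and Tsc22d3 in endothelial-like nuclei at 1.06.

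The GABAergic-like nuclei that held a UMI of Slc32a1, Gad1 or Gad2, which mark GABA synthesis and vesicular release, were reclustered into 10 subclusters, and 9 of them had enough nuclei in both libraries. Receptors were unevenly spread among them. Nr3c1 was highest in the subcluster led by Six3 and Col23a1 (83.9 and 121 CPM) and in those led by Reln (79.0 and 77.7 CPM) and by Cdh23 (75.0 and 75.3 CPM), and lower in the one led by 9030622O22Rik and Foxp2 (21.8 and 36.4 CPM). Esr1 was highest in the subcluster led by Npsr1 and Palld (84.4 and 117 CPM) and lower in the Reln subcluster (2.59 and 9.84 CPM). The Nr3c1-rich Reln subcluster was therefore poor in Esr1, and the Foxp2 subcluster combined lower Nr3c1 with Pgr at 91.5 and 97.5 CPM.

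**Figure D4:**
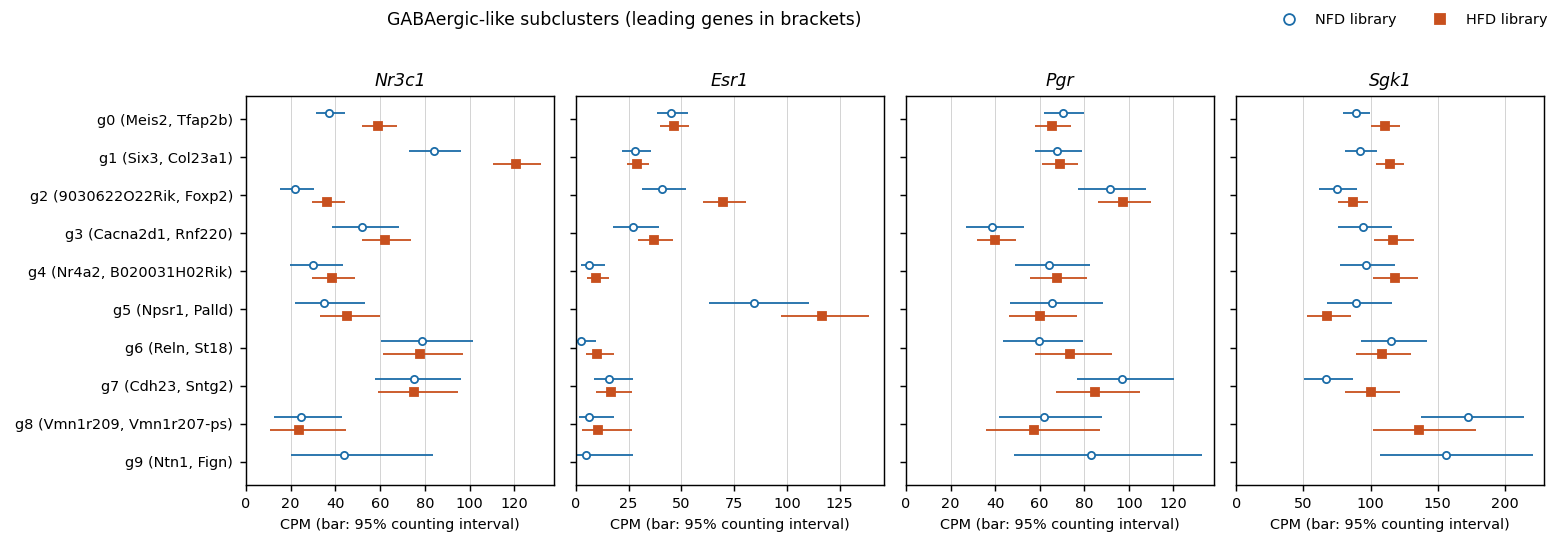
Levels of Nr3c1, Esr1, Pgr and Sgk1 in the 10 GABAergic subclusters (CPM), NFD as open circles and HFD as filled squares, with bars for the 95% counting interval. Esr1 reached 84.4 and 117 CPM in the subcluster led by Npsr1 and 2.59 and 9.84 CPM in that led by Reln.

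Between the libraries, 3 of 53 compared pairs of a gene and a subcluster were called, each higher in HFD. In the other 6 subclusters the share of all genes called was 1.75% (Six3), 1.32% (Cacna2d1), 1.07% (Nr4a2), 1.6% (Npsr1), 1.34% (Reln) and 1.26% (Cdh23), by their leading gene. Nr3c1 in the subcluster led by Meis2 and Tfap2b had 37.3 and 59.2 CPM (log2 ratio 0.67, 0.35 to 0.99), where 1.91% of genes were called. Esr1 in the Foxp2 subcluster had 41.0 and 69.9 CPM from 64 and 192 UMIs (0.77, 0.36 to 1.20), where 1.08% were called. Nr3c2 in the subcluster led by Vmn1r209, of 96 and 47 nuclei, had 204 and 361 CPM (0.83, 0.44 to 1.21), where 6.21% were called. The Nr3c1 ratio was above 0 in 7 of 9 subclusters, and Pgr was not called in any.

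Of the lists of pathway genes, the chaperones of the receptors held 2 genes called higher and 0 lower of 10 measured in GABAergic-like nuclei (median log2 ratio 0.23, against -0.05 over all genes). They were Stip1, which passes receptors between chaperones, at 48.7 and 80.2 CPM (0.72, 0.59 to 0.85), and Fkbp4, a co-chaperone related to Fkbp5, at 21.2 and 31.1 CPM (0.56, 0.36 to 0.75). Ptges3, which encodes the p23 co-chaperone, had 46.5 and 62.0 CPM and was not called. The 2 measured heat shock genes outside the list, Hsph1 (36.5 and 93.1 CPM) and Dnajb1 (4.90 and 13.1 CPM), were also called higher, and their part in the chaperone values was not tested.

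Among other genes known to be induced by glucocorticoids, 2 of 10 measured were called higher and 0 lower (median 0.24). They were Per1, a clock gene, at 8.42 and 13.3 CPM (0.66, 0.35 to 0.97), and Zbtb16, a zinc-finger transcription factor, at 38.5 and 57.9 CPM (0.59, 0.44 to 0.73). Dusp1, a phosphatase of MAP kinases, had 3.45 and 4.89 CPM, and Mt1, a metallothionein, 10.0 and 7.17 CPM, which were not called. Of the 3 induced members, Fkbp5 stood at 20.7 and 22.9 CPM, Sgk1 at 96.4 and 109 CPM and Tsc22d3 at 3.98 and 4.26 CPM in the same nuclei, and none was called. The background of genes called higher was 0.545%.

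The other lists described here held no called gene in GABAergic-like nuclei: 0 of 8 coregulators, 0 of 6 steroid enzymes, 0 of 4 partners of aldosterone signalling and 0 of 6 further TSC22 and FKBP paralogues, counted without Fkbp4. In astrocyte-like nuclei 2 of 11 measured glucocorticoid-induced genes were called lower, Klf9 (231 and 151 CPM) and Hif3a (221 and 120 CPM), and 0 higher, in a group where 3.03% of all genes were called lower. The smaller astrocyte-like cluster with neuron markers held 59 of 403 NFD and 79 of 299 HFD nuclei of this group, and its part in these values was not tested.

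**Figure D5:**
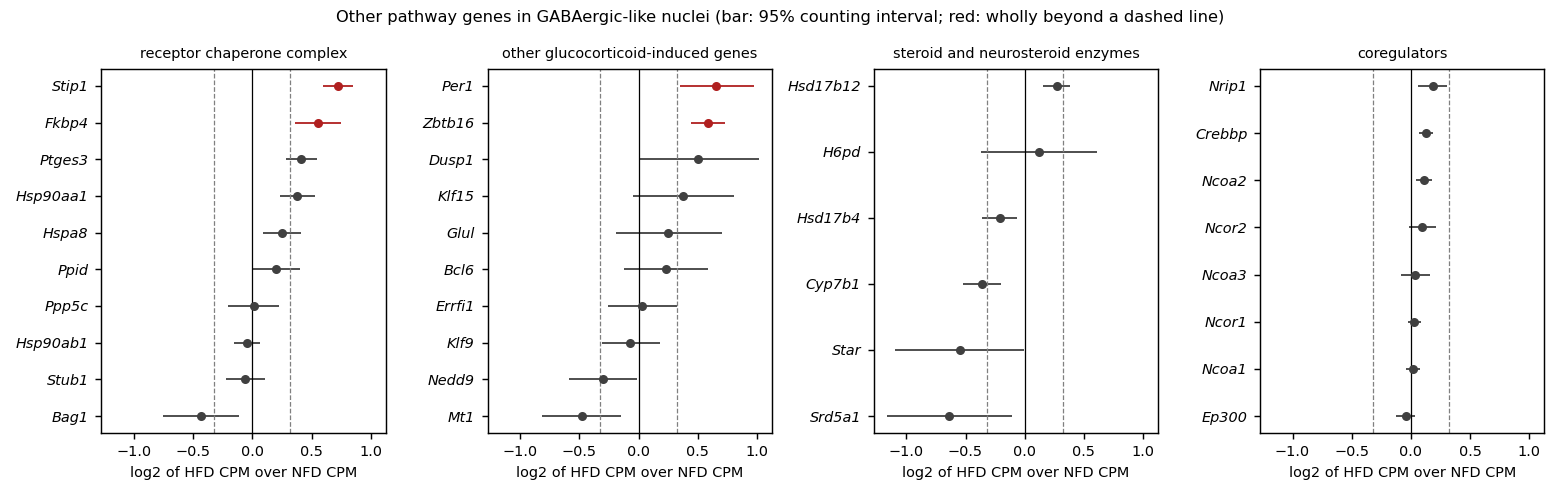
HFD to NFD ratio (log2) of the genes of 4 pathway lists in GABAergic-like nuclei, with bars for the 95% counting interval and red where the whole interval lies beyond 0.32 in either direction (dashed). Stip1 (0.72), Fkbp4 (0.56), Per1 (0.66) and Zbtb16 (0.59) are in red.

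The genes whose levels were most like those of a member over 18 points, which are the named groups in each library with enough nuclei, were ranked by Pearson correlation among 14279 genes as a description. For Nr3c1 they were Dock4 (0.86), Vps4b (0.82) and Ccnl2 (0.81), and for Nr3c2 they were Sema4a (0.91), Abr (0.89) and Gm12239 (0.88). Esr1 was followed by Dchs2 (0.91), Gm12296 (0.89) and Ankfn1 (0.88), and Pgr by 4930598N05Rik (0.95), 9330162G02Rik (0.95) and Epha10 (0.95). For Fkbp5 they were Wdr26 (0.92), Epb41l2 (0.92) and Picalm (0.92), for Sgk1 they were Gnai1 (0.89), Abca8b (0.88) and Map4k5 (0.86), and for Tsc22d3 they were Foxo1 (0.96), Ppp2r5a (0.95) and Glul (0.94). The points share 2 libraries and their depths, and Hsd11b1 had too few UMIs.

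In the GENCODE vM21 annotation of GRCm38, the genes lie at chr8:76899442-77245012 (Nr3c2, plus strand), chr10:4611593-5005614 (Esr1, plus), chr9:8899833-8968611 (Pgr, plus), chr17:28399094-28517527 (Fkbp5, minus), chr10:21882184-21999903 (Sgk1, plus), chrX:140539528-140600659 (Tsc22d3, minus) and chr1:193221634-193264075 (Hsd11b1, minus). Some annotated genes overlap them. Nr3c2 overlaps Gm23260 on its own strand and Gm10649 and Gm24838 on the other, Fkbp5 overlaps AC154912.5 and AC154912.3 on its own strand and AC154912.1 and Gm22146 on the other, and Hsd11b1 overlaps Gm38118, 4930570N18Rik and Lamb3, of which the first is on its own strand. The use of strand in counting was not given in the sources used here, so UMIs of these genes can be shared with their overlapping partners.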

How the data were processed

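Single-nucleus RNA was measured with 10x Genomics 3' v3 chemistry in 2 libraries, with a target of 8000 nuclei each. The deposited values are UMI counts per gene and barcode, not normalized. Per the labels the authors used bcl2fastq 5.01, Cell Ranger (4.0.0 in the matrix header), GRCm38 and Seurat 3.1.1. Intron counting was not given in the sources used here.

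From these counts, nuclei were clustered with Seurat 5.3.0 (2000 variable genes less the 25 members and pathway genes among them, 20 principal components, resolution 0.5) and GABAergic nuclei again at resolution 0.1. A cluster took a non-neuronal, serotonergic or granule name where at least 3 markers of the class were detected in 10% of its nuclei and their mean log2 fold over the other clusters (pseudocount 10 CPM) reached 1, or 2 for serotonergic nuclei. Other clusters with neuron markers were named by transmitter, where the summed CPM of Gad1, Gad2 and Slc32a1 was at least 2 times that of the glutamatergic markers or the reverse, with no limit on the fold over other clusters. Slc17a6 neurons carry the name of the gene because fewer than 3 glutamatergic markers were detected. Scrublet (scanpy 1.11.5) called 1 NFD and 0 HFD nuclei as doublets, which shows that it had not worked here, so none were removed.

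UMIs were summed per library and group. CPM carry exact Poisson intervals, shares Clopper-Pearson intervals and ratios exact conditional binomial intervals (scipy 1.17.1), at 95%. A ratio was called when its whole interval lay beyond 0.32 on the log2 scale. With 1 library per diet no test was run. PCR duplicates are removed by UMIs, but intervals and limits cover counting error only. The calculation of ratios and their intervals was tested on simulated counts, and the other steps were not.

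The text names the 8 members, up to 4 genes of each list with the largest ratio among those with 100 UMIs in GABAergic-like nuclei, 3 like genes per member with at least 200 UMIs, leading genes of clusters and paralogues. Klf9 and Hif3a in astrocyte-like nuclei, Hsph1 and Dnajb1 were named after their values were seen. The members and lists were chosen with earlier results of these data known. Counts over the list of other receptors are not reported here.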

Additional observations from a re-analysis of the deposited data

How the results depend on the processing

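No paired analysis was possible because there is 1 library per diet and the labels carry no replicate numbers. The 6 called pairs of a gene and a named group became 10 with 3000 variable genes, 3 with 30 principal components, 3 other pairs after thinning each nucleus to 2000 UMIs (Sgk1 in serotonergic-like nuclei at 0.95, Fkbp5 in endothelial-like at 2.12 and Tsc22d3 in ependymal-like at 1.59) and 3 at a limit of 1.5-fold. Over all nuclei, 0 called genes became 2 after thinning (Nr3c1 at 0.49 and Tsc22d3 at 0.65) and 2 at 1.1-fold. Without the granule neuron-like cluster the thinned ratio was 0.42 (0.28 to 0.56, not called) for Nr3c1. It was 0.69 (0.40 to 0.98, called) for Tsc22d3. Thinning leaves out nuclei below 2000 UMIs, and endothelial-like nuclei had median depths of 1523 in NFD and 2596.5 in HFD. The part of a changed mix of groups in the thinned ratios was not tested. The 3 called GABAergic subcluster pairs became 1 after thinning and the 4 called pathway genes 1, with fewer nuclei and UMIs left by construction. The share of Esr1 nuclei with a Pgr UMI (11.4% in NFD and 9.51% in HFD) was 5.10% and 3.77% at 1000 UMIs, 23.4% and 19.1% at 4000 UMIs and 34.1% and 46.1% with no thinning. Nuclei without an Esr1 UMI had 6.26% and 5.80%, 20.8% and 20.7%, and 26.1% and 39.6%, so the shares with and without were apart by their intervals only with no thinning. For the other changes the cause was not tested.

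The Nr3c1 ratio in GABAergic-like nuclei stayed between 0.41 and 0.55 over the alternatives of clustering, filters, weighting and thinning and was 0.30, 0.47 and 0.46 in nuclei of 2000 to 4000, 4000 to 8000 and 8000 to 16000 UMIs. It was not called with 30 principal components, after thinning or in any of these 3 ranges. With 30 principal components Nr3c1 and Tsc22d3 in endothelial-like nuclei were not called (0.59 and 0.58), but the name then covered a different set of nuclei. With thinning neither they, Sgk1 in astrocyte-like nuclei, Esr1 in ependymal-like nuclei nor Hsd11b1 in Slc17a6 neurons was called. Sgk1 in astrocyte-like nuclei reached 5.62 with 30 principal components, where the name covered a second cluster of 0 NFD and 55 HFD nuclei, and 5.08 without the 6% of nuclei with the highest Scrublet scores. The name then covered 344 and 341 NFD nuclei, respectively. In the main clustering the larger astrocyte-like cluster, also of 344 NFD nuclei, held 1 NFD Sgk1 UMI. Ratios of this size can thus rest on very few NFD molecules. Esr1 in ependymal-like nuclei was reversed at 0.83 (-0.32 to 1.94) among nuclei of 500 to 2000 UMIs. Over the alternatives of clustering, filters, weighting and thinning, each gene kept its highest group except Hsd11b1 (astrocyte-like in 7) and Tsc22d3 (astrocyte-like in 2). Tsc22d3 was also highest in astrocyte-like nuclei when the smaller astrocyte-like cluster was left out. Without thinning, leaving out the granule neuron-like cluster left 0 genes called over all nuclei, and leaving out the smaller astrocyte-like cluster left 5 pairs. These alternatives and the ranges of depth were chosen after seeing the data.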

Other observations

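Other steroid-related genes also had cell-type patterns in these libraries, and the genes below were chosen after their values were seen. Gper1, a membrane estrogen receptor, had 26 and 18 UMIs in endothelial-like nuclei (36.8 CPM in NFD and 39.9 CPM in HFD). Esr2, the estrogen receptor beta gene, stood at 24.5 and 21.6 CPM in serotonergic-like nuclei from 52 and 64 UMIs. Paqr8, a membrane progestin receptor, stood at 530 and 580 CPM in astrocyte-like nuclei, and Esrrg, an orphan estrogen-related receptor, at 735 and 750 CPM in ependymal-like nuclei.

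Of the 25 other glucocorticoid-induced genes, 3 chosen after their values were seen are given for endothelial-like nuclei, with no count or test over the list. Nfkbia, an inhibitor of NF-kappa-B, stood at 331 and 410 CPM, Dusp1 at 91.9 and 233 CPM and Cdkn1a, a cell cycle inhibitor, at 83.4 and 186 CPM. The same nuclei had immediate early genes at 416 and 915 CPM.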
